A study of Mus musculus with 6 samples.

Results

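This report describes 10 genes that encode transcription factors of Müller glia, the principal glial cells of the retina, in retinas lacking *Yap* in these cells. The genes were *Sox2*, *Sox9*, *Sox8*, *Pax6*, *Lhx2*, *Hes1*, *Hes5*, *Nfia*, *Nfib* and *Nfix*. They were matched by symbol to a count table of 55421 genes, and all 10 were found and passed the filter on low counts that left 16575 genes for testing. RNA was sequenced from retinas of 2-month-old mice, 3 control and 3 *Yap* cKO. Control mice were Yapfl/fl and *Yap* cKO mice were Yapfl/fl;RaxCreERT2, and both groups received 4OH-T at P10 and P14. The recombinase is under the control of *Rax* and, by the study's account, acts in Müller glia and in the non-pigmented epithelium of the ciliary body. The controls carried no Cre, so an effect of the recombinase itself cannot be told apart from that of the deletion.

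Müller glia arise from the same progenitors as retinal neurons and keep many progenitor transcription factors in the adult. *Sox2*, *Sox9*, *Pax6* and *Lhx2* are used by progenitors and by the glia they give rise to, *Hes1* and *Hes5* encode repressors that respond to Notch signalling and hold back neuronal differentiation, and the nuclear factor I genes *Nfia*, *Nfib* and *Nfix* are known to keep mature mouse Müller glia quiescent and to restrict their return to a neurogenic state. In fish these cells re-enter the cell cycle after injury and rebuild neurons, whereas in mice they rarely do so. YAP, the effector of the Hippo pathway, acts on DNA through TEAD factors and is required for mouse Müller cells to re-enter the cell cycle after injury.

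The targeted gene was checked first. *Yap1*, which encodes YAP, had 579, 604 and 699 counts in the control retinas YR612, YR613 and YR615, and 236, 303 and 249 counts in the *Yap* cKO retinas YR711, YR713 and YR714. The fitted log2 fold change was -1.36 ± 0.09 (SE, n = 3 retinas per group; edgeR quasi-likelihood test, adjusted p = 0.00028), in the direction of the labels. *Rax* itself, whose control elements drive the recombinase, stood at 63.0, 47.5 and 52.2 TPM (transcript level corrected for gene length and library size) in controls and at 34.9, 43.2 and 55.7 TPM in *Yap* cKO, and the groups overlapped (adjusted p = 0.298). Total counts per retina lay between 24261799 and 35067068, and the 10 genes had between 173 (*Hes5*, YR613) and 10771 counts (*Pax6*, YR713) in a retina.

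RefSeq promoter windows, cut here to the 250 bases upstream of each annotated start (GRCm38.p6), were found for 7 of the 10 genes, in 12 windows. They were searched on both strands for 2 short motifs, which can share bases where they adjoin: GGAATG, the core bound by TEAD factors, through which YAP acts, and TGGGAA, the core bound by RBPJ, the DNA-binding partner of Notch. GGAATG was in 0 of the 12 windows and in 12.6% of all 32851 windows. TGGGAA or its reverse complement was in 3 of the 12 windows, belonging to *Hes5* and *Lhx2*, and in 21.6% of all windows. *Sox9*, *Hes1* and *Nfib* had no window and were not searched. All *Nfix* windows, and the downstream windows of *Lhx2* and *Pax6*, lie inside the gene as counted. The *Nfia* window ends at chr4:97581942, whereas the gene as counted starts at 97772734. The *Sox2* window ends at chr3:34649994, whereas that gene starts at 34650405. The *Hes5* window (chr4:154960673-154960922, plus strand) and the first of the pair of *Lhx2* windows (chr2:38339031-38339280, plus strand) are shown because they hold the match upstream of the whole gene; capitals mark the match on either strand, 5′ to 3′.
*Hes5*: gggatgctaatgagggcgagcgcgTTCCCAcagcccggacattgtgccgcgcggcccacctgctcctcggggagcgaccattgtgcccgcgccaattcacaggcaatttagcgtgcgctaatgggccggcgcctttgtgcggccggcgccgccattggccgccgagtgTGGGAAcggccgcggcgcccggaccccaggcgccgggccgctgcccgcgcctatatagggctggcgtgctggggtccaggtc
*Lhx2*: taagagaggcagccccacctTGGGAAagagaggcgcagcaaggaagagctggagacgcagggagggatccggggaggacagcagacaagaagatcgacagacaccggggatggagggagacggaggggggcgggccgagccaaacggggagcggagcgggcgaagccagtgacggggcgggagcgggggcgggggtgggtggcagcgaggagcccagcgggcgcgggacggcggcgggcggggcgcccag
In *Hes5* the matches start 226 and 82 bases before the gene start, and in *Lhx2* 230 bases before it. These are matches of letters, and binding was not measured.

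None of the 10 genes passed the test between *Yap* cKO and control retinas. At an adjusted p of at most 0.05 (edgeR quasi-likelihood test, Benjamini-Hochberg over all genes tested), 0 of 10 were called, beside 1.49% of all genes tested (247 of 16575). When a minimum fold of 1.5 and a group mean of 5 TPM were added, the count was also 0, beside 0.796%. At an unadjusted p of at most 0.05 there were 3 of 10, 1 higher (*Pax6*, beside 12% of all genes in that direction) and 2 lower (*Lhx2* and *Sox2*, beside 9.42%), against 21.4% of all genes in either direction. The TPM ranges of the groups did not overlap for 3 of 10, *Pax6* and *Sox8* higher and *Lhx2* lower, beside 24.3% of all genes. The count of all genes called rested on single retinas: 56, 1490 and 49 genes passed the adjusted threshold without YR612, YR613 or YR615, and 156, 93 and 992 without YR711, YR713 or YR714. In each of these 6 fits 0 of the 10 genes were called.

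In RNA of whole retina, the data also bound how large the differences could be. They do not bound a change within Müller glia alone, since the RNA of all cells was read together. Fitted values ran from -0.29 for *Lhx2* to 0.28 for *Pax6* on the log2 scale, which is 0.817-fold to 1.21-fold. The 95% interval lay within 1.5-fold in both directions for 9 of the 10 genes, beside 63.9% of all genes tested. *Hes5* was the exception, with an interval from -0.25 to 0.60. Values were above 0 for 6 genes and below 0 for 4, with a median of 0.017 (-0.096 with the length correction described below), beside a median of 0.0017 over all genes tested.

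**Figure D1:**
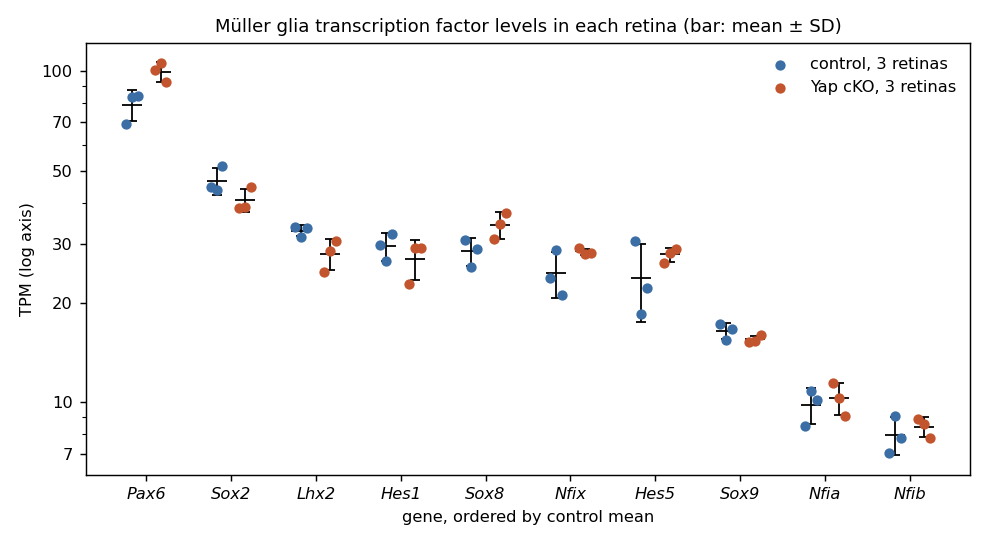
TPM of the 10 genes in each retina on a log axis, blue for control and orange for *Yap* cKO, with bars for the mean ± SD of 3 retinas. *Pax6* was the most abundant in both groups and *Nfib* the least, and the TPM of the groups did not overlap for *Pax6*, *Lhx2* and, by a margin below the printed digits, *Sox8*.

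The levels spanned more than an order of magnitude, from 7.02 TPM (*Nfib*, YR612) to 106 TPM (*Pax6*, YR713). In controls the order by mean was *Pax6*, *Sox2*, *Lhx2*, *Hes1*, *Sox8*, *Nfix*, *Hes5*, *Sox9*, *Nfia* and *Nfib*. The ranges of *Lhx2*, *Hes1*, *Sox8*, *Nfix* and *Hes5* overlapped from one to the next, as did those of *Nfia* and *Nfib*, so these neighbours cannot be ranked. *Pax6*, *Sox2* and *Sox9* stood clear of their neighbours. In *Yap* cKO retinas the range of *Sox8* overlapped neither that of *Sox2* above it nor that of *Nfix* below it, whereas the ranges of *Nfix*, *Lhx2*, *Hes5* and *Hes1* overlapped from one to the next. All levels are of whole retina, in which fewer cells of a type and less RNA per cell cannot be told apart.

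Fold changes in these libraries went with gene length, which touches several of the 10 genes. Over all genes tested, the median log2 fold change was -0.15 in the 3316 genes with an exonic length of up to 2118 bases and 0.16 in the 3313 genes of 7268 bases or more. Offsets fitted to this trend in each retina (length correction) brought both medians to within 0.01 of 0. The 10 genes lie along the whole range, from 1363 bases (*Hes5*) to 14957 bases (*Nfib*). Fold changes and list medians below are therefore given with and without the correction where it moved them by more than 1.5 times or turned their sign.

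**Figure D2:**
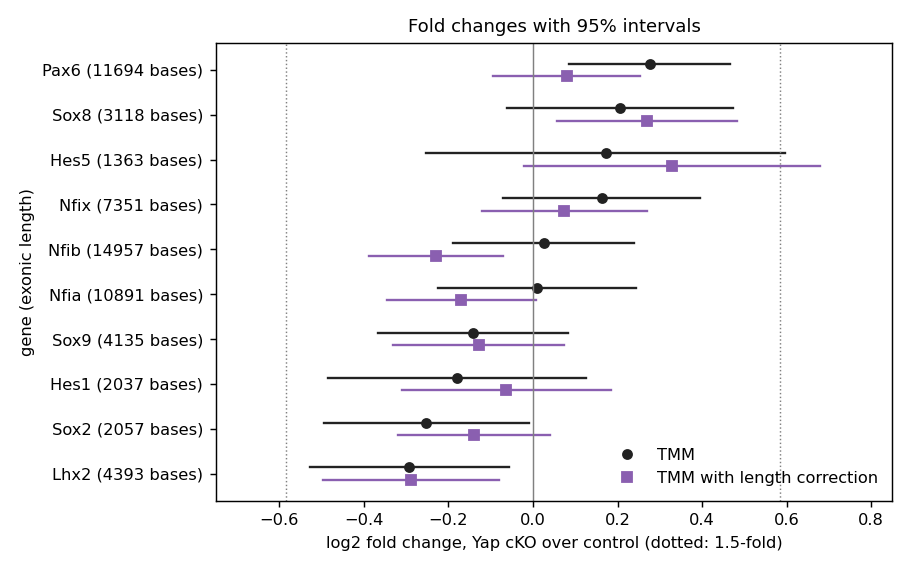
Log2 fold change of each gene, *Yap* cKO over control, with its 95% interval, by TMM normalization (black circles) and with length correction added (purple squares); dotted lines mark 1.5-fold. *Pax6*, *Nfia* and *Nfib*, the longest of the genes, moved down with the correction, and *Sox2*, *Hes1* and *Hes5*, the shortest, moved up.

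Among the factors shared with progenitors, *Pax6*, a paired-box and homeobox factor, had the smallest p. *Pax6* (ENSMUSG00000027168; GRCm38 chr2:105668900-105697364, plus strand) is also made by amacrine, ganglion and horizontal cells. It stood at 69.3, 83.8 and 84.3 TPM in controls (mean 79.1 ± 8.51, SD, n = 3) and at 101, 106 and 92.5 TPM in *Yap* cKO (mean 99.6 ± 6.72, SD, n = 3). Every *Yap* cKO retina was above every control retina, a separation seen upward in 15.2% of all genes tested. The log2 fold change was 0.28 ± 0.08 (SE, unadjusted p = 0.0092, adjusted p = 0.126). With length correction it was 0.079 (95% interval -0.094 to 0.25, adjusted p = 0.605), and the corrected values of the groups overlapped.

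*Lhx2* (ENSMUSG00000000247; chr2:38339281-38369733, plus strand), a LIM-homeobox factor needed to keep Müller glia from becoming reactive, moved the other way. It was at 34.0, 31.5 and 33.6 TPM in controls and at 24.8, 28.6 and 30.7 TPM in *Yap* cKO. All 3 *Yap* cKO retinas were below all controls, as for 9.04% of genes tested in that direction, and YR711 was the lowest. The log2 fold change was -0.29 ± 0.10 (SE, adjusted p = 0.164), and it was nearly the same with length correction (-0.29, adjusted p = 0.125).

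*Sox2* (ENSMUSG00000074637; chr3:34650405-34652461, plus strand), which keeps progenitors and adult Müller glia in their state, was at 44.7, 43.8 and 51.6 TPM in controls and at 38.7, 38.9 and 44.6 TPM in *Yap* cKO. The groups overlapped, since YR714 was above the control YR613. The log2 fold change was -0.25 ± 0.11 (SE, adjusted p = 0.219), and with length correction -0.14 (95% interval -0.32 to 0.041, adjusted p = 0.368).

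Neither SoxE gene, *Sox9* or *Sox8*, passed the test. *Sox9* (ENSMUSG00000000567; chr11:112782224-112787760, plus strand), required for Müller glia to form, was at 17.2, 15.4 and 16.6 TPM in controls and at 15.3, 15.3 and 16.0 TPM in *Yap* cKO. These ranges overlapped, and the log2 fold change was -0.14 ± 0.10 (SE, adjusted p = 0.424). *Sox8* (ENSMUSG00000024176; chr17:25565892-25570686, minus strand), its close relative in glia, was at 31.0, 25.6 and 29.0 TPM in controls and at 31.0, 34.5 and 37.4 TPM in *Yap* cKO. Its TPM ranges were separated only by a margin below the printed digits, between YR612 and YR711, and in log2 CPM YR612 was above YR711 with and without length correction, so the groups overlapped on both of those scales. The log2 fold change was 0.21 ± 0.12 (SE, adjusted p = 0.334), and with length correction 0.27 (95% interval 0.056 to 0.48, adjusted p = 0.156).

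*Sox8* made up 64.3%, 62.4% and 63.6% of the summed TPM of *Sox8* and *Sox9* in the control retinas and 67.0%, 69.3% and 70.1% in the *Yap* cKO retinas. The means were 63.4% ± 0.95 and 68.8% ± 1.57 (SD, n = 3), a difference of 5.37 percentage points that exceeded the spread within either group. With 3 against 3 retinas an exact two-sided permutation test cannot go below p = 0.1, the value found here.

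**Figure D3:**
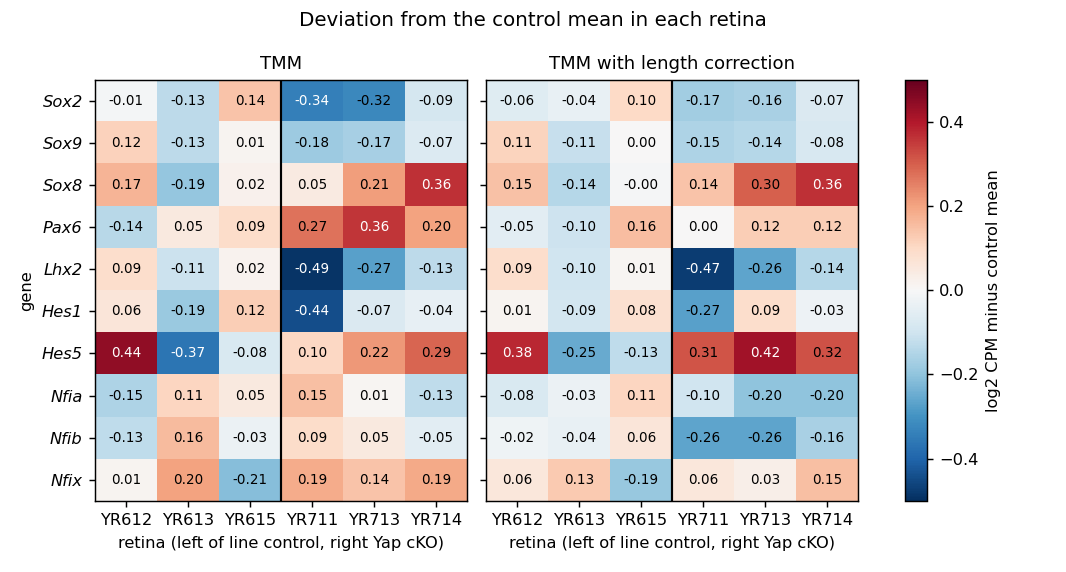
Log2 CPM (library-size-scaled counts) of each gene minus its control mean, in the 6 retinas, by TMM (left) and with length correction (right); red is above and blue below the control mean. *Sox2*, *Sox9* and *Lhx2* were below 0 in all 3 *Yap* cKO retinas on both scales, and *Sox8*, *Hes5*, *Pax6* and *Nfix* were above 0. *Nfib* was mixed by TMM and below 0 in all 3 with length correction.

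The Notch effectors *Hes1* and *Hes5* did not pass the test. *Hes1* (ENSMUSG00000022528; chr16:30064384-30067796, plus strand) was at 29.8, 26.6 and 32.3 TPM in controls and at 22.8, 29.3 and 29.2 TPM in *Yap* cKO. Only YR711 was below the control range, and the log2 fold change was -0.18 ± 0.14 (SE, adjusted p = 0.453), or -0.063 with length correction. *Hes5* (ENSMUSG00000048001; chr4:154960923-154962371, plus strand), the gene whose promoter is printed above, was at 30.7, 18.5 and 22.1 TPM in controls and at 26.4, 28.3 and 29.1 TPM in *Yap* cKO.

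The controls of *Hes5* spread more widely than those of any other of the 10 genes relative to their mean (23.8 ± 6.25 TPM, SD), and YR612 was above every *Yap* cKO retina. The log2 fold change was 0.17 ± 0.19 (SE, adjusted p = 0.613), and with length correction 0.33 (95% interval -0.022 to 0.68, adjusted p = 0.275). Without YR612 the uncorrected value was 0.42, and without YR613 it was 0.0041. *Hes5* was 50.8%, 41.0% and 40.7% of the summed TPM of *Hes1* and *Hes5* in controls and 53.6%, 49.1% and 49.9% in *Yap* cKO, and these ranges overlapped (exact two-sided permutation test, p = 0.3).

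None of the nuclear factor I genes passed the test, and *Nfia* and *Nfib* were close to 0 before length correction. *Nfia* (ENSMUSG00000028565; chr4:97772734-98118874, plus strand) was at 8.49, 10.8 and 10.2 TPM in controls and at 11.4, 10.3 and 9.11 TPM in *Yap* cKO, with a log2 fold change of 0.0099 ± 0.10 (SE, adjusted p = 0.964). *Nfib* (ENSMUSG00000008575; chr4:82290173-82705750, minus strand) was at 7.02, 9.11 and 7.80 TPM in controls and at 8.93, 8.59 and 7.80 TPM in *Yap* cKO, with a log2 fold change of 0.025 ± 0.10 (SE, adjusted p = 0.897). *Nfix* (ENSMUSG00000001911; chr8:84699876-84800344, minus strand) was at 23.8, 28.8 and 21.1 TPM in controls and at 29.2, 28.1 and 28.3 TPM in *Yap* cKO, with a log2 fold change of 0.16 ± 0.10 (SE, adjusted p = 0.378). All 3 overlapped between the groups, and in *Nfix* the *Yap* cKO retinas were much closer to each other than the controls were.

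With length correction the signs of *Nfia* and *Nfib* turned. *Nfib* became -0.23 (95% interval -0.39 to -0.071, unadjusted p = 0.0089, adjusted p = 0.113) and *Nfia* -0.17 (95% interval -0.35 to 0.0063, adjusted p = 0.262), while *Nfix* fell to 0.074. The unadjusted p was then at most 0.05 for *Nfib*, *Lhx2* and *Sox8*, 3 of 10 genes, beside 20.3% of all genes, and 0 of 10 passed after adjustment, beside 2.49%. The direction of *Nfia* and *Nfib* in *Yap* cKO retinas therefore changes with the scaling. Without length correction it also turned when a single retina was left out. *Nfia* was -0.066 without YR612 and -0.068 without YR711, and *Nfib* was -0.039 and -0.013 in the same fits. Without any other single retina both stayed above 0.

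*Nfic*, the remaining gene of the family, was the most abundant of the 4, at 55.6, 62.3 and 52.1 TPM in controls and 71.8, 76.9 and 68.7 TPM in *Yap* cKO. All *Yap* cKO retinas were above all controls, as for 15.2% of all genes tested, and the log2 fold change was 0.30 ± 0.08 (SE, adjusted p = 0.106). Its share of the family's summed TPM was 57.3% ± 1.25 in controls and 60.5% ± 1.47 in *Yap* cKO (SD, n = 3), without overlap. That of *Nfib* was 8.06% ± 0.60 and 7.05% ± 0.27, also without overlap. Both gave the smallest p this design allows (exact two-sided permutation test, p = 0.1), and shares of TPM carry the length trend given above.

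**Figure D4:**
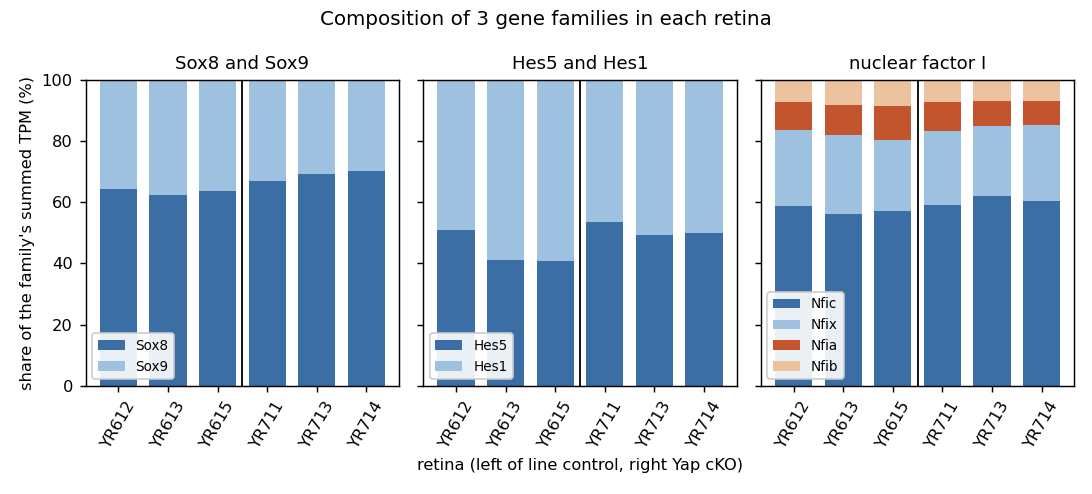
Share of each gene in the summed TPM of *Sox8* and *Sox9*, of *Hes5* and *Hes1*, and of the 4 nuclear factor I genes, in each retina. The share of *Sox8* was 62.4% to 64.3% in controls and 67.0% to 70.1% in *Yap* cKO.

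By Pearson correlation of log2 CPM over the 6 retinas, the genes most like *Pax6* were *Emb* (r = 0.999), *Kcna5* (r = 0.993) and *Inpp5f* (r = 0.992), and 140 genes reached 0.95. These points share libraries, depth and the length trend. *Emb* was at 23.8, 28.3 and 28.1 TPM in controls and 32.8, 33.7 and 30.4 TPM in *Yap* cKO (adjusted p = 0.173), *Kcna5* at 113, 130 and 129 TPM against 145, 151 and 140 TPM (adjusted p = 0.218), and *Inpp5f* at 31.5, 39.1 and 38.8 TPM against 47.5, 51.7 and 45.5 TPM (adjusted p = 0.0888).

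The other genes of these pathways were read from 7 lists, with 60 genes tested of 69 outside the 10 genes reported here. Of these 60, 1 rose and 0 fell at an adjusted p of at most 0.05, beside 0.501% and 0.989% of all genes. The gene that rose was *Sox5*, a SoxD factor expressed in neurons and glia. It was at 2.97, 3.87 and 3.07 TPM in controls and 5.65, 5.55 and 4.87 TPM in *Yap* cKO, with a log2 fold change of 0.64 ± 0.11 (SE, adjusted p = 0.0318), or 0.40 with length correction (adjusted p = 0.038). Its adjusted p was 0.16, 0.0093 and 0.163 without YR612, YR613 or YR615, and 0.0719, 0.159 and 0.0195 without YR711, YR713 or YR714. The call was thus lost without any of 4 of the retinas.

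In the list of other retinal progenitor and Müller glia factors (14 tested, 1 called, median 0.083, and 2 called with a median of 0.030 with length correction), *Prox1*, a homeobox factor of horizontal and bipolar cells and of Müller glia, was next. *Prox1* was at 55.6, 79.8 and 57.8 TPM in controls and at 115, 103 and 84.5 TPM in *Yap* cKO, without overlap. Upward, 15.2% of all genes tested were separated in this way. Its log2 fold change was 0.59 ± 0.14 (SE, adjusted p = 0.0726), and with length correction 0.47 (adjusted p = 0.034). Among the relatives of the 10 genes (6 of 12 tested, 0 called, median -0.20), *Hes6*, a Hes protein that promotes neuronal differentiation, was at 51.3, 41.3 and 48.6 TPM in controls and 36.8, 32.2 and 44.6 TPM in *Yap* cKO (log2 fold change -0.37 ± 0.15, adjusted p = 0.195, and -0.25 with length correction). *Sox1*, *Sox3*, *Sox21*, *Hes2*, *Hes3* and *Hes7* did not pass the filter, with 0 to 10 counts in each retina.

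Of the Notch genes, ligands (5 tested), receptors (4 tested), processing enzymes and nuclear cofactors (11 tested), and modifiers and inhibitors (10 tested) each had 0 called. Their median log2 fold changes were 0.017, -0.067, 0.085 and -0.065 in that order, and -0.030, -0.21, 0.013 and -0.058 with length correction, so that the sign of the ligands turned. *Dll1*, a ligand, was at 11.9, 12.1 and 13.4 TPM in controls and at 8.09, 9.67 and 10.1 TPM in *Yap* cKO (log2 fold change -0.48 ± 0.12, adjusted p = 0.088). *Lfng*, which adds sugars to Notch receptors and is made by Müller glia, was at 17.7, 16.8 and 16.8 TPM in controls and at 9.0, 10.5 and 13.7 TPM in *Yap* cKO (log2 fold change -0.69 ± 0.16, adjusted p = 0.0741). In both genes, named for their small p, every *Yap* cKO retina was below every control, as for 9.04% of all genes tested. *Dll3*, the ligand with the next smallest p, was at 0.457 to 0.668 TPM over the 6 retinas (adjusted p = 0.849), and *Dtx3*, a Deltex gene, had a log2 fold change of -0.21 ± 0.09 (SE, adjusted p = 0.207, and -0.12 with length correction).

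*Notch2* was the one receptor with an unadjusted p below 0.05, at 10.5, 12.4 and 9.45 TPM in controls and 9.87, 8.73 and 7.26 TPM in *Yap* cKO. Its log2 fold change was -0.38 ± 0.12 (SE, adjusted p = 0.14), and it passed the test with length correction (-0.56, adjusted p = 0.0138) and in 7 of 24 alternatives in all. *Notch3* had the next smallest p among the receptors (-0.11 ± 0.17, adjusted p = 0.742, and -0.22 with length correction). A predicted gene shares 5.02% of the exonic bases of *Notch2* on the same strand. *Maml3*, a coactivator of the Notch complex, was at 3.69, 4.37 and 4.03 TPM in controls and 6.08, 6.96 and 4.76 TPM in *Yap* cKO (log2 fold change 0.50 ± 0.14, adjusted p = 0.101, and 0.33 with length correction). *Psenen*, a subunit of gamma-secretase, was at 79.8, 75.5 and 88.0 TPM in controls and 73.7, 63.6 and 73.3 TPM in *Yap* cKO (log2 fold change -0.27 ± 0.10, adjusted p = 0.186, and -0.12 with length correction).

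The reprogramming regulators had 10 genes tested of 13, 0 called and a median of 0.059, which turned to -0.071 with length correction. *Socs3*, an inhibitor of JAK and STAT signalling, was at 4.51, 4.19 and 4.01 TPM in controls and 2.44, 2.58 and 2.89 TPM in *Yap* cKO (log2 fold change -0.74 ± 0.16, adjusted p = 0.061). These groups did not overlap, a separation seen downward in 9.04% of all genes tested. *Neurod1*, a proneural factor that photoreceptors also express, was at 259, 303 and 281 TPM in controls and 338, 380 and 334 TPM in *Yap* cKO (log2 fold change 0.26 ± 0.08, adjusted p = 0.122), and 7.37% of its exonic bases are shared with *Cerkl* on the same strand. *Atoh1* and *Olig2* had 0 counts in every retina, which does not exclude a low level. *Atoh7*, a factor of ganglion cell birth, had 8 to 17 counts and was not tested.

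**Figure D5:**
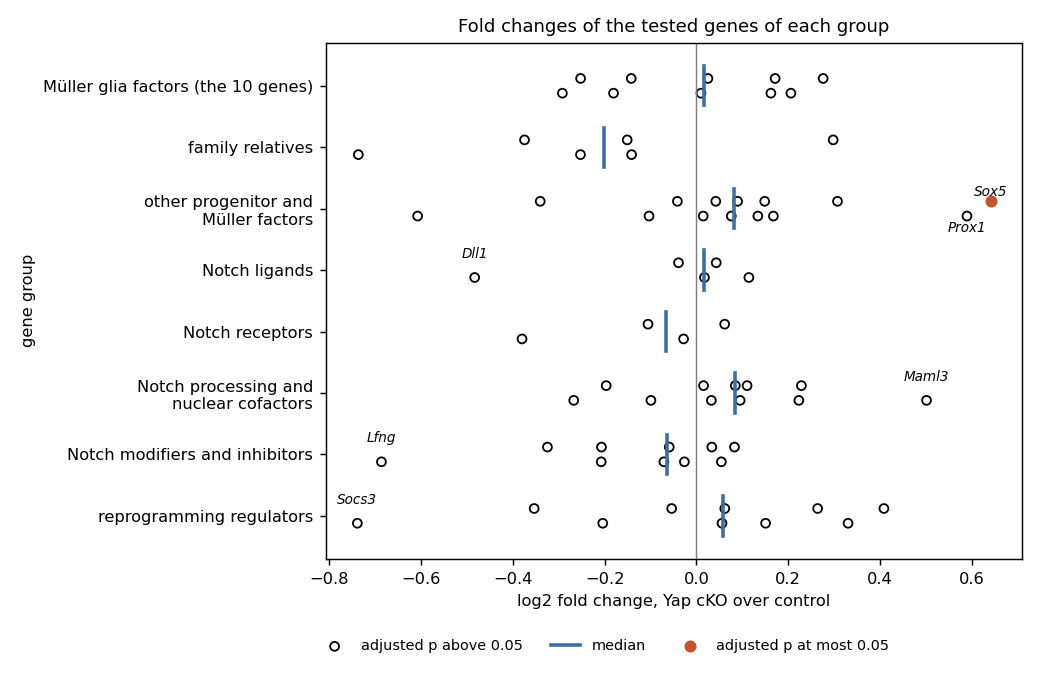
Log2 fold change, *Yap* cKO over control, of every tested gene in the 10 genes and the 7 lists, with the median of each group as a blue bar and *Sox5*, the 1 gene with an adjusted p of at most 0.05, filled. The 10 genes lie between -0.29 and 0.28, and the 7 lists together between -0.74 and 0.64.

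Markers of the cells that hold these factors were read beside them. The 12 Müller glia markers were all detected, with summed levels of 8285 to 8513 TPM in controls and 7286 to 7687 TPM in *Yap* cKO, 0 of 12 called, 4 values above 0 and 8 below, and a median log2 fold change of -0.14. *Rlbp1*, the retinaldehyde-binding protein of Müller glia, had the smallest p of them (log2 fold change -0.36 ± 0.08, SE, adjusted p = 0.054), and it passed the test with length correction (-0.29, adjusted p = 0.0395). *Kcnj10*, the Müller potassium channel and next by p, went the other way, at 69.0, 80.8 and 66.3 TPM in controls and 97.9, 89.6 and 85.9 TPM in *Yap* cKO (log2 fold change 0.28 ± 0.09, adjusted p = 0.126). Ciliary non-pigmented epithelium markers, 6 genes with none at 0, summed to 87.6 to 105 TPM in controls and 27.2 to 49.4 TPM in *Yap* cKO, and the 8 pigment markers to 159 to 164 TPM and 35.6 to 115 TPM. *Optc*, a marker of the non-pigmented epithelium, was at 50.2, 45.6 and 48.2 TPM in controls and at 2.86, 8.39 and 2.44 TPM in *Yap* cKO. *Pax6*, *Lhx2*, *Sox2* and *Hes1* are active in that epithelium too, and its part in their values was not tested.

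Amacrine, ganglion and horizontal cells also make *Pax6*. The 9 amacrine markers summed to 1894 to 2087 TPM in controls and 1941 to 2077 TPM in *Yap* cKO, with 0 of 9 called and a median of 0.11 (0.040 with length correction). In TPM, which was not length corrected for this trend, 4 of the 9 were higher in every *Yap* cKO retina than in any control, beside 15.2% of all genes tested. *Chat* (0.42 ± 0.11, adjusted p = 0.0884) and *Tfap2b* (0.32 ± 0.10, adjusted p = 0.126) had the smallest p. The 4 horizontal cell markers summed to 106 to 122 TPM and 104 to 112 TPM, with 0 called and a median of 0.48 (0.35 with length correction). *Lhx1* (0.43 ± 0.13, adjusted p = 0.13) and *Onecut1* (0.99 ± 0.29, adjusted p = 0.122, with 52.8% of its exonic bases shared with a predicted gene) were higher in every *Yap* cKO retina. *Calb1*, the most abundant of the 4, went the other way, at 98.6, 107 and 113 TPM in controls and 96.9, 89.8 and 97.0 TPM in *Yap* cKO, without overlap (-0.23 ± 0.08, adjusted p = 0.153). Downward, 9.04% of all genes tested were separated in this way. The 8 ganglion cell markers summed to 2120 to 2410 TPM and 2176 to 2435 TPM, with 0 called and a median of 0.018 (0.050 with length correction), led by *Slc17a6* (0.16 ± 0.08, adjusted p = 0.274) and *Sncg* (-0.16 ± 0.13, adjusted p = 0.499, and -0.0080 with length correction). No marker of these 3 lists was at 0, and their part in the value of *Pax6* was not tested.

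Over the 13 marker lists, calls were 2 of 6 in gliosis (*Serpina3n* and *Edn2*, lower), 1 of 5 in astrocytes (*Aldh1l1*, lower), 1 of 6 in bipolar cells (*Grm6*, higher), 2 of 5 in the ciliary epithelium (*Optc* and *Gja1*, lower) and 1 of 8 in pigment (*Pmel*, lower), and 0 in each of the other 8. Over all genes tested, 0.501% were called higher and 0.989% lower at the same threshold. *Optc* and *Aldh1l1* were called with any 1 retina left out. The adjusted p of *Serpina3n* was 0.16, 0.156 and 0.0974 without YR612, YR615 or YR711, that of *Edn2* 0.135, 0.156 and 0.127 without YR612, YR615 or YR713, and that of *Pmel* 0.16, 0.157 and 0.0717 without YR612, YR615 or YR711. That of *Grm6* was 0.0785, 0.131, 0.0539 and 0.13 without YR612, YR615, YR711 or YR713, and that of *Gja1* 0.0904 and 0.093 without YR612 or YR615. With length correction *Rlbp1*, *Arr3* of cones (0.35, adjusted p = 0.0207) and *Flt1* of endothelial cells (-0.40, adjusted p = 0.0153) were called as well. By *Ddx3y* and *Xist* counts the control group held 2 males and 1 female and the *Yap* cKO group 1 male and 2 females. With sex as a covariate 0 of the 10 genes passed the adjusted threshold.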

How the data were processed

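RNA was analysed from 6 retinas of 2-month-old mice, 3 per group, grouped by the genotype in the sample labels and named by the code in the label. The authors prepared stranded mRNA libraries, aligned paired reads to GRCm38 with STAR 2.7.3a and counted them per gene, strand setting 2, with featureCounts 1.6.2, and the header names annotation release 98. The deposited values are raw counts with exonic lengths, and total counts per retina were 24261799 to 35067068. Symbols were matched for 55154 of 55421 genes. From the counts, TPM was computed with the deposited exonic length, which covers all exons of a gene and so can understate genes with many isoforms. Genes were filtered with filterByExpr, TMM-normalized and tested with edgeR 4.0.16 (R 4.3.3; glmQLFit, glmQLFTest) with Benjamini-Hochberg adjustment over 16575 genes, and standard errors were derived from the F statistic. Log2 CPM used a prior count of 2. Length and GC corrections used loess offsets per retina (span 0.3). DESeq2 1.42.0, limma 3.58.1 and other scalings, filters and left-out retinas were alternatives. The fit and the length correction were also run on simulated counts with the same dispersion for every gene. That check does not show how the fits behave with the spread of these retinas. No batch is labelled, and the codes differ between all 6 retinas. That the 3 retinas of a group came from separate animals was assumed from these codes and from the study, which calls its replicates independent.

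The 10 genes and the lists were chosen with earlier results of these data known. Named genes were the 10, *Yap1*, list genes past the adjusted threshold of 0.05, the 2 of each pathway list and of the Müller glia, amacrine, horizontal and ganglion cell lists with the smallest p (for the other marker lists this part of the rule was not printed), and the 3 genes most like the member with the smallest p. Single genes outside that rule (*Rax*, *Calb1*, *Flt1*, *Cerkl*, *Ddx3y*, *Xist* and untested list genes) were named after their values were seen. Protein sequences were not used here.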

Additional observations from a re-analysis of the deposited data

How the results depend on the processing

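None of the 10 genes reached an adjusted p of 0.05 in any of the 24 fits tried, 16 of them planned and 8 added after seeing the data, and the lowest was 0.0592 (*Lhx2*). Of 240 values, 213 kept their direction. *Nfia* became -0.0072 with library size only, -0.035 with upper quartile factors, -0.17 with length correction, -0.055 with GC correction and -0.17 with a likelihood ratio test and length correction, and *Nfib* became -0.020 with upper quartile factors, -0.23, -0.032 and -0.23 in the latter 3. With 1 retina left out, with or without length correction, values ran from -0.21 to 0.072 for *Nfia*, -0.26 to 0.11 for *Nfib*, -0.27 to 0.028 for *Hes1* and -0.016 to 0.27 for *Nfix*.

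The median of the 10 was -0.096 with length correction and -0.095 with the likelihood ratio test and length correction. With 1 retina left out it was -0.052 to 0.066 without length correction and -0.14 to -0.043 with it. Over all genes, adjusted p was at most 0.05 for 892 with DESeq2, 1025 by likelihood ratio test, 1865 with no filter, 413 with length correction, 534 with GC correction, 1054 by likelihood ratio test with length correction, 151 with sex as a covariate and 49 to 1490 with 1 retina left out. All criteria were met by 132 genes in the main fit made here (quasi-likelihood test, TMM), which is not the study's own count. They were met by 263 with DESeq2, 291 by likelihood ratio test, 369 with no filter, 245 by likelihood ratio test with length correction and 38 to 516 with 1 retina left out. No paired analysis was possible because the groups share no replicate numbers. The cause of the spread between fits was not tested.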

Other observations

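Ratios between 2 genes of a family do not depend on a retina's size factor. Relative to the control mean, the log2 ratio of *Sox8* to *Sox9* was 0.054, -0.063 and 0.0089 in the control retinas YR612, YR613 and YR615 and 0.23, 0.38 and 0.43 in the *Yap* cKO retinas YR711, YR713 and YR714. With length correction it was 0.034, -0.027 and -0.0061 against 0.30, 0.44 and 0.44, so that every *Yap* cKO retina was above every control on both scales. The ratio of *Nfix* to *Nfib* overlapped between the groups without length correction (0.14, 0.041 and -0.18 against 0.093, 0.094 and 0.24) and did not overlap with it (0.078, 0.17 and -0.25 against 0.32, 0.29 and 0.31). That of *Hes5* to *Hes1* overlapped on both scales, and that of *Nfic* to *Nfib* did not overlap on either. No test was run on the ratios, and how often ratios of other gene pairs separate these groups was not computed.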
